A study of Mus musculus with 48 samples.

Results

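The genes described here encode the subunits of the 5 complexes of oxidative phosphorylation that the nucleus contributes. They were taken by symbol from the table of gene counts, as every gene named Nduf followed by a, b, c, s or v and a number, Sdha to Sdhd, and every gene whose name starts with Uqcr, Cox4 to Cox8 or Atp5. The rule used no measured value and gave 87 of 18782 genes, of which 41 were placed in complex I by name, 4 in complex II, 8 in complex III, 17 in complex IV and 17 in complex V. The 41 include Ndufa4, which is now known as a subunit of complex IV, and its paralog Ndufa4l2. It misses Cyc1 and Ndufab1, which are also subunits and are given beside the members. RNA was measured by strand-specific sequencing in the thoracic aorta of 48 C57BL/6J mice, with 1 library per mouse. MaCon (10 males) and FeCon (10 females) drank normal water. The other mice had 0.4% β-aminopropionitrile (BAPN), an inhibitor of the enzyme lysyl oxidase that cross-links collagen and elastin, in their water for 28 days from 3 weeks of age. They were grouped by what the aorta looked like at the end: MaNonAD (4 males) and FeNonAD (8 females) had no dissection or aneurysm, and MaAAD (7 males) and FeAAD (9 females) had one. Only mice alive at the end were sequenced. The paper reports a higher mortality from aortic rupture in BAPN males than in BAPN females, so the BAPN groups are survivors after unequal loss. No mouse carried a transgene or deletion by its labels, the 6 groups shared strain and age, and the NonAD and AAD groups were defined by outcome and not by treatment. The thoracic aorta was excised from the ascending part over the arch to the proximal descending part, and the methods give lesioned segments of it as the source of the RNA. Which segments were taken from mice without a lesion, and whether the surrounding fat was removed, is not given in the sources used here.

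Complexes I to IV of the inner mitochondrial membrane pass electrons from NADH and succinate to oxygen and, except for complex II, pump protons as they do so, and complex V, the ATP synthase, lets the protons back to make ATP. Most subunits are encoded in the nucleus and are made in nearly every cell, at levels that follow how much a tissue respires, and a few subunits exist as isoforms that heart, skeletal muscle or brown fat use in place of the common one. Brown fat is very rich in these complexes and is marked by Ucp1, which lets protons leak back without making ATP, and the fat around the mouse thoracic aorta resembles brown fat.

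Libraries held between 13548003 and 17281262 counts, and 14431 genes were tested, 84 of the 87 members among them. The 3 others were too low: Cox7b2 had no count in any library, Ndufb4b reached 8 counts in a library and was above 0 in 13 libraries, and Ndufs6b reached 6 counts and was above 0 in 41. Acta2 and Myh11, which mark the smooth muscle of the aortic wall, were found in every library. The summed level of the smooth muscle list ranged from 31534 to 69349 CPM (counts divided by the scaled total of the library) in MaCon, from 34405 to 59822 in FeCon, from 13450 to 32479 in MaAAD and from 15447 to 35484 in FeAAD, and that of the leukocyte list from 231 to 648 in the control groups together and from 674 to 5945 in the AAD groups. The brown fat list, 12 genes that include Ucp1 and Cidea, summed to between 240 CPM (MaAAD3) and 2976 CPM (MaAAD1), with no gene of the list at 0 throughout a group. Heart muscle genes stood apart in 3 libraries, with Myh6, the heart myosin, at 65.7 CPM in MaCon6, 142 CPM in MaAAD7 and 224 CPM in FeCon10. The part of these cell types in the results below was not tested beyond the fits named beside them. In whole tissue, fewer cells of a type and less RNA per cell cannot be told apart.

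In both sexes the mean level of the subunits was a little lower in AAD aortas than in control aortas, and in females the step was smaller than the SD within a group. Expressed as the mean of log2(CPM + 1) over the 84 members tested, the level was 6.61 ± 0.33 in MaCon (SD, n = 10), 6.72 ± 0.44 in MaNonAD (n = 4) and 6.15 ± 0.60 in MaAAD (n = 7). In females it was 6.35 ± 0.29 in FeCon (n = 10), 6.32 ± 0.30 in FeNonAD (n = 8) and 6.19 ± 0.28 in FeAAD (n = 9). Of the 7 MaAAD libraries, 6 lay between 5.71 and 6.20 and 1, MaAAD1, was at 7.46, the highest of all 48 libraries. MaAAD1 was also the highest library of its group in the brown fat list (2976 CPM) and in the list for fat of any kind (10843 CPM, against 1529 CPM in MaAAD3) and the lowest in smooth muscle genes (13450 CPM). The other groups had no such gap: MaCon ran from 6.09 over a median of 6.69 to 7.01, FeCon from 6.02 over 6.28 to 6.86, FeNonAD from 5.95 over 6.31 to 6.78, and FeAAD from 5.71 over 6.12 to 6.58. The 4 MaNonAD libraries were at 6.32, 7.28, 6.86 and 6.43. Every pair of groups overlapped.

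**Figure D1:**
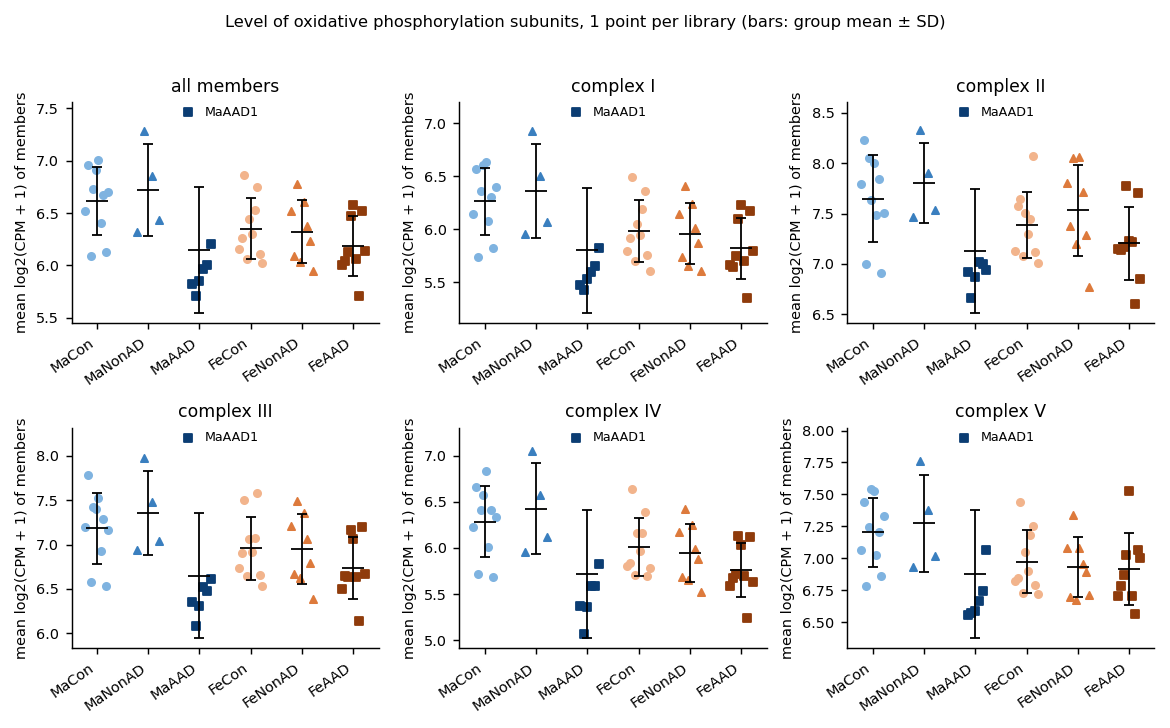
Mean log2(CPM + 1) of all 84 members tested and of each complex (y axes) by group (x axes), with 1 point per library and bars for mean ± SD. MaAAD1, labelled, lies above the rest of its group in each panel, at 7.46 for all members, where the 6 other MaAAD libraries lie between 5.71 and 6.20.

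As a share of the transcriptome the 87 members summed to 12527 ± 2884 CPM in MaCon (SD, n = 10), 13768 ± 4320 CPM in MaNonAD (n = 4) and 9602 ± 5674 CPM in MaAAD (n = 7). The female sums were 10475 ± 2308 CPM in FeCon (n = 10), 10622 ± 2608 CPM in FeNonAD (n = 8) and 9333 ± 2022 CPM in FeAAD (n = 9). In males MaAAD had the lowest mean for each of the 5 complexes. Mean levels of complex I (NADH dehydrogenase) in MaCon, MaNonAD and MaAAD were 6.27, 6.36 and 5.80, those of complex II (succinate dehydrogenase, which also works in the citrate cycle) 7.65, 7.81 and 7.13, those of complex III (cytochrome c reductase) 7.18, 7.36 and 6.65, those of complex IV (cytochrome c oxidase) 6.29, 6.42 and 5.72, and those of complex V (ATP synthase) 7.20, 7.27 and 6.88. In females the same means in FeCon, FeNonAD and FeAAD were closer together, at 5.98, 5.96 and 5.82 for complex I, 7.39, 7.53 and 7.20 for complex II, 6.96, 6.95 and 6.74 for complex III, 6.02, 5.95 and 5.76 for complex IV, and 6.98, 6.93 and 6.92 for complex V. Per kilobase of transcript, the scale on which genes can be compared, the most abundant members in MaCon were Atp5b, the catalytic β subunit of ATP synthase, at 687 ± 212 CPM per kb (SD, n = 10), Cox6a1 at 662 ± 197 CPM per kb and Cox4i1 at 652 ± 177 CPM per kb. The isoforms of other tissues were far below their common partners, with Cox6a2, the heart and skeletal muscle form, at 1.71 CPM per kb and Cox4i2, the lung form, at 7.86 CPM per kb. Cox7a1 and Cox8b, the forms of muscle and brown fat, were the exception, at 82.1 CPM per kb beside 164 for Cox7a2 and 223 beside 476 for Cox8a.

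The first comparison asked what changed in male aortas with a lesion. Between MaAAD and MaCon 81 of the 84 members had a lower fitted level, with a median log2 fold change of −0.36, and 6 members fell at an adjusted p below 0.05 (edgeR's quasi-likelihood test, adjusted over all genes tested). Over all genes 35.0% were called in this comparison and 16.1% were called lower, so the members' share of calls was below the background. The 6 members that fell were Ndufv3, Ndufs7, Ndufb10 and Ndufa7 of complex I, Sdhc of complex II and Cox4i2 of complex IV. None of complex III or V passed, and the medians were −0.39 for complex I, −0.46 for complex II, −0.36 for complex III, −0.39 for complex IV and −0.25 for complex V. The median of all genes was within 0.03 of 0 in this and every other comparison between groups.

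Ndufv3, a small subunit of the NADH-oxidizing arm of complex I, was at 93.1 CPM in the lowest MaCon library, 115 CPM in the median and 146 CPM in the highest, against 59.6, 66.1 and 148 CPM in MaAAD. MaAAD1 held the highest value, and the 6 other MaAAD libraries, at 59.6 to 71.1 CPM, were all below the lowest MaCon library. The fitted log2 fold change was −0.61 ± 0.17 (SE, edgeR adjusted p = 0.00323). Ndufs7, a core subunit that carries an iron-sulfur cluster, ran from 54.8 over 115 to 185 CPM in MaCon and from 43.8 over 46.3 to 182 CPM in MaAAD, and its log2 fold change was −0.73 ± 0.25 (edgeR adjusted p = 0.0179). Here the ranges overlapped also without MaAAD1. Cox4i2, the isoform of Cox4 best known from lung, was low throughout, at 3.27, 4.73 and 9.16 CPM in MaCon (lowest, median, highest) and 2.68, 3.05 and 5.00 CPM in MaAAD, and fell by 0.70 ± 0.21 on the log2 scale (edgeR adjusted p = 0.00626). The membrane anchor Sdhc, from 141 over 192 to 265 CPM in MaCon and from 110 over 128 to 269 CPM in MaAAD, had a log2 fold change of −0.49 and the accessory subunits Ndufb10 and Ndufa7 had −0.50 and −0.48. Ndufa7 was near the threshold (edgeR adjusted p = 0.0489) and passed it no more without MaNonAD2 (0.0773), MaNonAD3 (0.0872) or FeNonAD8 (0.0510). With only MaCon and MaAAD fitted, the calls of Ndufs7 (edgeR adjusted p = 0.0829), Ndufb10 (0.0648), Sdhc (0.0526) and Ndufa7 (0.123) were lost. Without the 3 libraries high in heart muscle genes the same 4 were lost (0.0803, 0.0632, 0.0607 and 0.122). They were also lost with Ucp1 as a covariate (0.0932, 0.119, 0.116 and 0.19). Ndufv3 and Cox4i2 passed under each of these settings. On GRCm38 Ndufb10 (chr17:24722060-24724478, minus strand), Ndufv3 (chr17:31520115-31531331, plus strand) and Ndufa7 (chr17:33824572-33838317, plus strand) lie on 1 chromosome. The others are Ndufs7 at chr10:80249121-80256794 (plus strand), Cox4i2 at chr2:152754173-152765037 (plus strand) and Sdhc at chr1:171127165-171150603 (minus strand).

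Other core subunits fell short of the threshold in this comparison, with wide overlap. Sdhb, the iron-sulfur subunit of complex II, ran from 84.8 over 165 to 257 CPM in MaCon and from 70.4 over 86.6 to 346 CPM in MaAAD (log2 fold change −0.48 ± 0.27, edgeR adjusted p = 0.168). Uqcrfs1, the Rieske iron-sulfur protein of complex III, ran from 82.6 over 168 to 277 CPM and from 61.0 over 92.0 to 373 CPM (−0.37 ± 0.29, edgeR adjusted p = 0.332). Atp5b ran from 730 over 1303 to 1963 CPM and from 581 over 760 to 2358 CPM (−0.43 ± 0.23, edgeR adjusted p = 0.155). In each of these the MaAAD median lay near the MaCon minimum while MaAAD1 lay above the MaCon maximum. Cyc1 (cytochrome c1 of complex III) and Ndufab1 (the acyl carrier of complex I), which the symbol rule misses, had log2 fold changes of −0.56 ± 0.28 (edgeR adjusted p = 0.125) and −0.39 ± 0.26 (edgeR adjusted p = 0.244).

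Since 1 library decided so much, the fit was repeated without MaAAD1, a choice made after its level was seen, so that lower values in the remaining libraries follow in part from the choice. Without it 75 of 84 members were lower in MaAAD than in MaCon (background 37.1% of genes called, 17.0% called lower), at a median log2 fold change of −0.72, and the called members were 37 of 39 in complex I, 4 of 4 in complex II, 8 of 8 in complex III, 15 of 16 in complex IV and 11 of 17 in complex V. Ndufs7 was then at −1.18 (edgeR adjusted p = 2.47e-05), Ndufv3 at −0.83 (edgeR adjusted p = 2.87e-05), Sdhb at −1.01, Ndufv1, which binds NADH, at −1.02, Uqcrfs1 at −0.91, Uqcrc1, a core protein of complex III, at −0.97 and Atp5b at −0.80. The 9 members that did not pass were Ndufa4l2 and Ndufb1 of complex I, Cox6a2 of complex IV, and Atp5g1, Atp5g2, Atp5g3, Atp5md, Atp5mpl and Atp5pb of complex V. Atp5g1, Atp5g2 and Atp5g3 are 3 genes for one and the same protein, the c subunit of the membrane rotor.

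MaAAD and MaNonAD mice drank the same BAPN and differed by lesion. Of the 4 MaNonAD libraries, MaNonAD2 and MaNonAD3 had levels above the MaCon median and MaNonAD1 and MaNonAD4 below it. In MaAAD 81 of 84 members had a lower fitted level than in MaNonAD, with a median log2 fold change of −0.50, between −0.34 for complex V and −0.55 for complex II. None passed in edgeR (0.409% of all genes did) or in DESeq2, and 31 of 84 had an unadjusted p below 0.05, against 18.7% of all genes. Without MaAAD1 68 were lower (background 9.31% of genes called, 3.99% called lower), at a median of −0.85, and these were 34 in complex I, 4 in complex II, 8 in complex III, 12 in complex IV and 10 in complex V. Between MaNonAD and MaCon 71 members had a higher fitted level with a median of 0.13, and none passed in edgeR (background 0.624%) or DESeq2, nor at an unadjusted p below 0.05, where 12.0% of all genes did.

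In females the fitted step from control to lesion was smaller, but the test of this difference between the sexes called no member (1.34% of all genes). Between FeAAD and FeCon 72 of 84 members had a lower fitted level with a median of −0.16, and 3 members fell, all of complex IV, where 44.4% of all genes were called and 20.6% were called lower. Cox4i2 ran from 2.89 over 5.50 to 8.17 CPM in FeCon and from 3.35 over 3.96 to 4.61 CPM in FeAAD, a fall of 0.50 ± 0.19 on the log2 scale (edgeR adjusted p = 0.0285). This call was lost with the heart muscle genes as a covariate (−0.43, edgeR adjusted p = 0.0762) and with library totals alone (−0.41, edgeR adjusted p = 0.0536). FeAAD lay inside the range of FeCon, but the highest FeAAD library, at 4.61 CPM, was below the FeCon median of 5.50 CPM. Cox7a2l ran from 127 over 163 to 209 CPM in FeCon, from 105 over 130 to 158 CPM in FeNonAD and from 107 over 133 to 177 CPM in FeAAD. It was lower in both BAPN groups than in FeCon, at −0.29 ± 0.12 in FeAAD (edgeR adjusted p = 0.0466) and −0.36 ± 0.13 in FeNonAD (edgeR adjusted p = 0.0445), 2 comparisons that share the control libraries. Both calls were near the threshold: without FeNonAD8 the second was −0.33 (edgeR adjusted p = 0.0954), and without MaNonAD2 or MaNonAD3, which enter through the shared spread, the adjusted p was 0.0573 or 0.0613 for the first and 0.0513 or 0.0557 for the second. The first was also lost with the heart muscle genes as a covariate, and the second with no filter or with library totals alone. With the replicate number as a block no member passed in either comparison, Cox4i2 included.

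The third call, Cox6a2 at −2.21 ± 0.86 (edgeR adjusted p = 0.0325), came from 1 control library. FeCon10 held 13.2 CPM, the other 9 FeCon libraries held 0.145 to 0.95 CPM and FeAAD held 0.0600 to 0.824 CPM. Without FeCon10 the log2 fold change was −0.37 (edgeR adjusted p = 0.735), and with the heart muscle genes as a covariate it was 0.27 (edgeR adjusted p = 0.555), the opposite direction. The next highest libraries for this heart isoform were MaAAD7 at 12.2 CPM and MaCon6 at 7.57 CPM, the same 3 libraries that stood out in Myh6.

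Between FeNonAD and FeCon 47 members were below 0 and the median was −0.03. Cox7a2l was the 1 member called (14.5% of all genes were, and 7.66% were called lower). Between FeAAD and FeNonAD 68 were below 0 with a median of −0.12, none passed in edgeR (background 18.2%) or DESeq2, and 1 had an unadjusted p below 0.05, against 32.1% of all genes. By complex the medians of FeAAD against FeCon were −0.16 for complex I, −0.20 for complex II, −0.24 for complex III, −0.21 for complex IV and −0.04 for complex V, so complex V moved least in both sexes, a description of fitted values with no test of the difference between complexes.

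**Figure D2:**
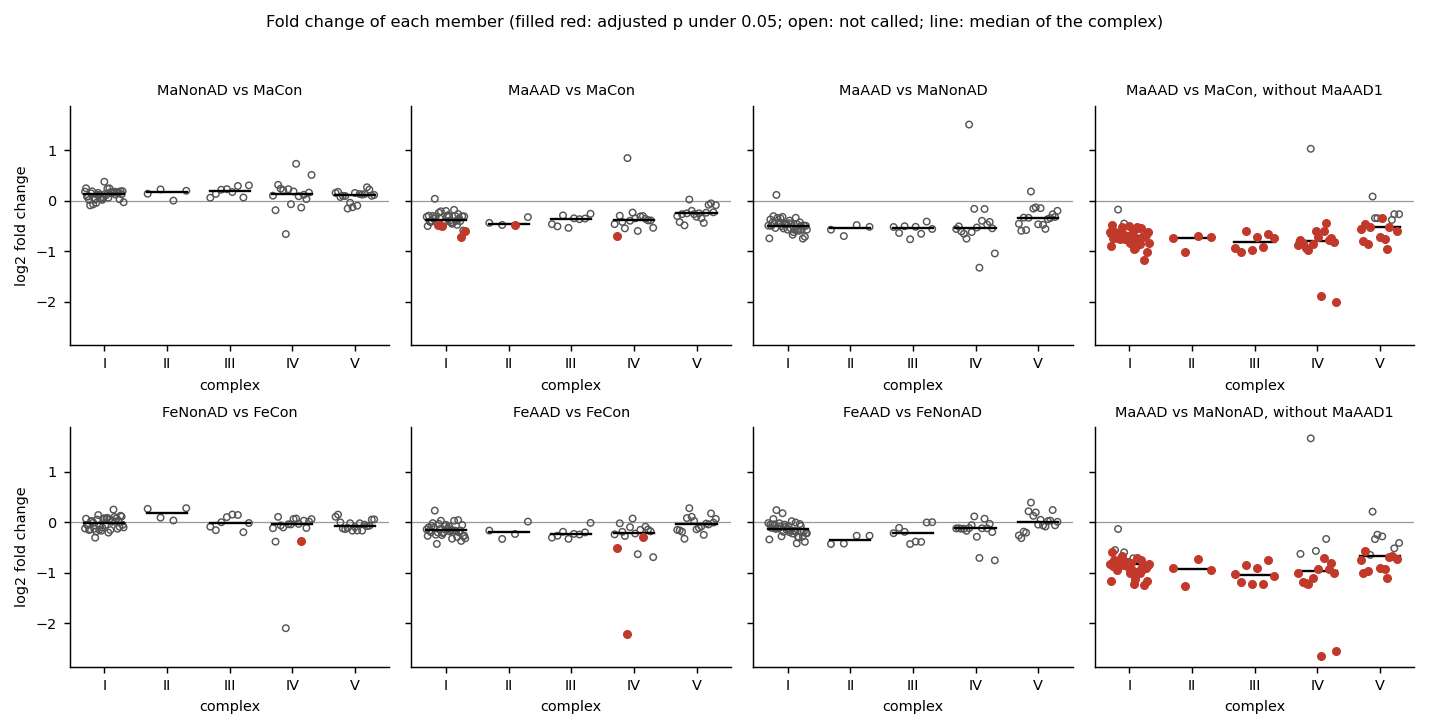
Log2 fold change of each member (y axes) by complex (x axes) in the 6 comparisons within a sex and in 2 male comparisons without MaAAD1, with red filled points for an edgeR adjusted p below 0.05, open points for the rest and a line at the median of the complex. MaAAD against MaCon holds 6 filled points with all libraries and 75 without MaAAD1.

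Male and female aortas were compared at each stage, among the mice that lived to the end. Of 84 members 83 had a higher fitted level in MaCon than in FeCon, with a median log2 difference of 0.29 (complex I 0.30, II 0.31, III 0.22, IV 0.31 and V 0.22), and none passed in edgeR (background 14.3%) or DESeq2, with 10 at an unadjusted p below 0.05, against 29.1% of all genes. In NonAD mice 84 of 84 were higher in males with a median of 0.42, none passing in edgeR (background 0.0624%) or DESeq2 and 16 at an unadjusted p below 0.05 (6.47% of all genes), and in AAD mice 68 were higher with a median of 0.06, none passing (background 0.0901%; DESeq2 0) and 1 at an unadjusted p below 0.05 (2.22% of all genes). Tests of whether the response itself differed between the sexes called no member in edgeR or DESeq2: the median difference of male minus female response was 0.14 for NonAD against control (background 0.416%, 0 at an unadjusted p below 0.05 against 12.1% of all genes), −0.23 for AAD against control (background 1.34%, 1 at an unadjusted p below 0.05 against 15.4%) and −0.36 for AAD against NonAD (background 0.0%, 0 at an unadjusted p below 0.05 against 1.04%). When the log2 level of Ucp1 was added to the fit, 4 members were higher in MaCon than in FeCon (background 16.2%, with 7.67% called higher): Ndufb3 by 0.38 (edgeR adjusted p = 0.00933), Ndufc1 by 0.39 (0.0369), Sdhc by 0.30 (0.0468) and Cox6b2, a testis form, by 0.53 (0.0476).

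The level of the subunits went with that of Ucp1 from mouse to mouse. Ucp1 was at 86.5 CPM in the lowest MaCon library, 432 CPM in the median and 1131 CPM in the highest, at 409, 1173, 652 and 608 CPM in the MaNonAD libraries, and at 10.9, 138 and 1364 CPM in MaAAD. In females it ran from 168 over 313 to 1040 CPM in FeCon, from 89.0 over 465 to 919 CPM in FeNonAD and from 66.9 over 229 to 902 CPM in FeAAD. The highest library was above the lowest by 2.87-fold in MaNonAD, by 6.19-fold in FeCon and by 125-fold in MaAAD, and no step between groups passed the test, with log2 fold changes of −0.67 ± 0.59 (SE) for MaAAD against MaCon (edgeR adjusted p = 0.399), −1.29 ± 0.72 against MaNonAD (0.34) and −0.34 ± 0.54 for FeAAD against FeCon (0.64). The highest MaAAD library in Ucp1 was MaAAD1.

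Across the 48 libraries the mean level of the members and log2(CPM + 1) of Ucp1 had a Pearson r of 0.74 and a Spearman rho of 0.78, and r was 0.77 without the 2 libraries farthest from the median of Ucp1. Both values come from the same library and scaling and the 6 groups are pooled, so r is a description. Within groups r was 0.78 in MaCon, 0.78 in FeCon, 0.88 in FeNonAD, 0.50 in FeAAD and 0.76 in MaAAD, and without the 2 farthest libraries 0.42, 0.63, 0.85, 0.40 and −0.76. The relation in MaAAD thus rested on those libraries. Over the 48 libraries the level had an r of 0.76 with the genes of fat of any kind, 0.65 with the brown fat list (0.25 within FeAAD), 0.06 with the heart muscle genes, 0.12 with smooth muscle genes (−0.88 within MaAAD), −0.23 with leukocyte genes and −0.46 with fibroblast genes. Once group means were removed, a doubling of Ucp1 went with a rise of the level by 0.21 (log2) and took up 53.3% of the variance within groups. By complex this share was 49.9% for I, 78.9% for II, 66.3% for III, 59.0% for IV and 32.9% for V. MaAAD1, which lay 1.31 above the mean of its group and was highest of the 48 libraries in Ucp1, enters each of these shares. They were not computed without it. The libraries left farthest above the line were FeAAD5 (by 0.58) and MaAAD1 (by 0.57). FeAAD5 had a level of 6.58, the highest of its group, with 123 CPM of Ucp1 and 27.9 CPM of Cidea, and the highest sum of leukocyte genes of any library, 5945 CPM.

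**Figure D3:**
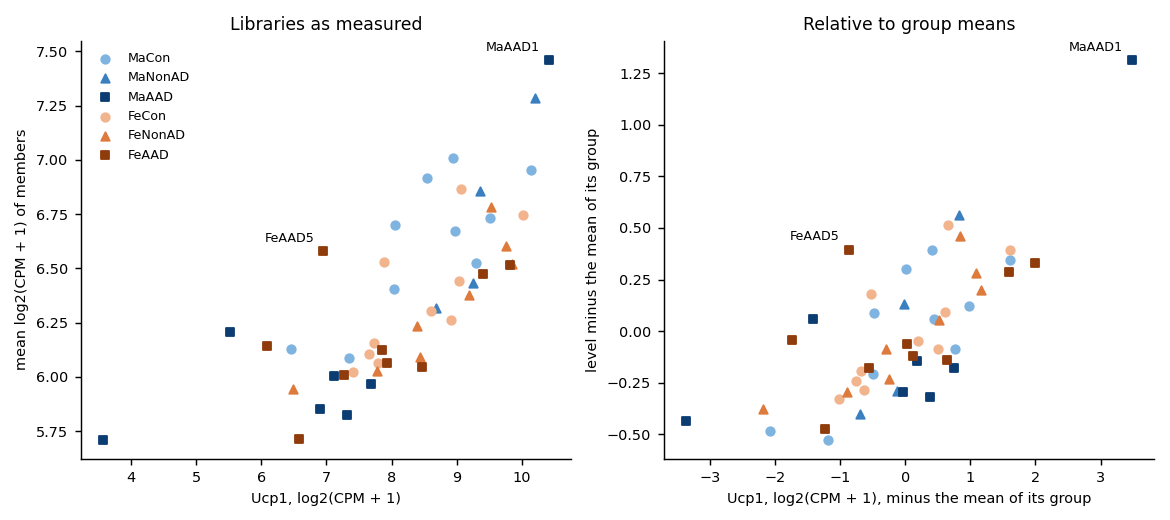
Mean log2(CPM + 1) of the members (y axes) against log2(CPM + 1) of Ucp1 (x axes) in the 48 libraries, as measured on the left and after removing each group's mean on the right, with 1 point per library coloured by group. The level rises with Ucp1 (r = 0.74 on the left), and MaAAD1 and FeAAD5, labelled, lie above the other libraries of like Ucp1.

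Gene by gene, the slope of each member on Ucp1 within groups was fitted in all 48 libraries, with the group as a factor. It was above 0 at an adjusted p below 0.05 in edgeR for 71 of 84 members and below 0 for 1, where 9.96% of all genes rose with Ucp1 and 8.04% fell. The median slope of the members was 0.22 log2 units per doubling of Ucp1 and that of all genes −0.02. Members called positive were 34 of 39 in complex I, 4 of 4 in complex II, 8 of 8 in complex III, 13 of 16 in complex IV and 12 of 17 in complex V. DESeq2, on a larger set of 18614 genes, called 72 members and 14.8% of all genes. The steepest were the isoforms of muscle and brown fat, Cox7a1 at 0.78 ± 0.05 (SE, edgeR adjusted p = 4.61e-17) and Cox8b at 0.74 ± 0.05 (edgeR adjusted p = 4.11e-17). Among the core subunits chosen for naming, Uqcrfs1 was at 0.41 ± 0.03, Sdhb at 0.37 ± 0.03, Sdha, the subunit that oxidizes succinate, at 0.36 ± 0.02, Cox5a at 0.36 ± 0.04, Uqcrc1 at 0.35 ± 0.03, Ndufv1 at 0.34 ± 0.03, Ndufs1 at 0.33 ± 0.02 and Atp5b at 0.33 ± 0.03. Atp5a1, the α subunit of ATP synthase, had 0.26 ± 0.02. Cyc1 had 0.39 ± 0.03 and Ndufab1 0.35 ± 0.03.

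The 12 members without a call were Ndufa4l2, Ndufb1, Ndufa11, Ndufa2 and Ndufb7 of complex I, Cox6a2, Cox4i2 and Cox7a2l of complex IV, and Atp5g3, Atp5g2, Atp5j and Atp5e of complex V. Their slopes lay between −0.37 for Cox6a2, with an SE of 0.26, and 0.11. The 1 member that fell with Ucp1 was Atp5g1, at −0.14 ± 0.04 (edgeR adjusted p = 0.00796). It was between 39.2 and 151 CPM over the 48 libraries and highest in FeAAD5. Its slope was below 0 in each of the 5 groups fitted alone, from −0.04 in FeCon to −0.30 in FeAAD, with no call in any of them, and it lost the call with Adipoq in place of Ucp1 (−0.13, edgeR adjusted p = 0.192). Its partners for the same rotor protein had slopes of 0.02 ± 0.04 (Atp5g2) and 0.01 ± 0.04 (Atp5g3), so the c subunit genes did not share the positive slope of Atp5a1 and Atp5b. Whether Atp5g1 differed from them was not tested.

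**Figure D4:**
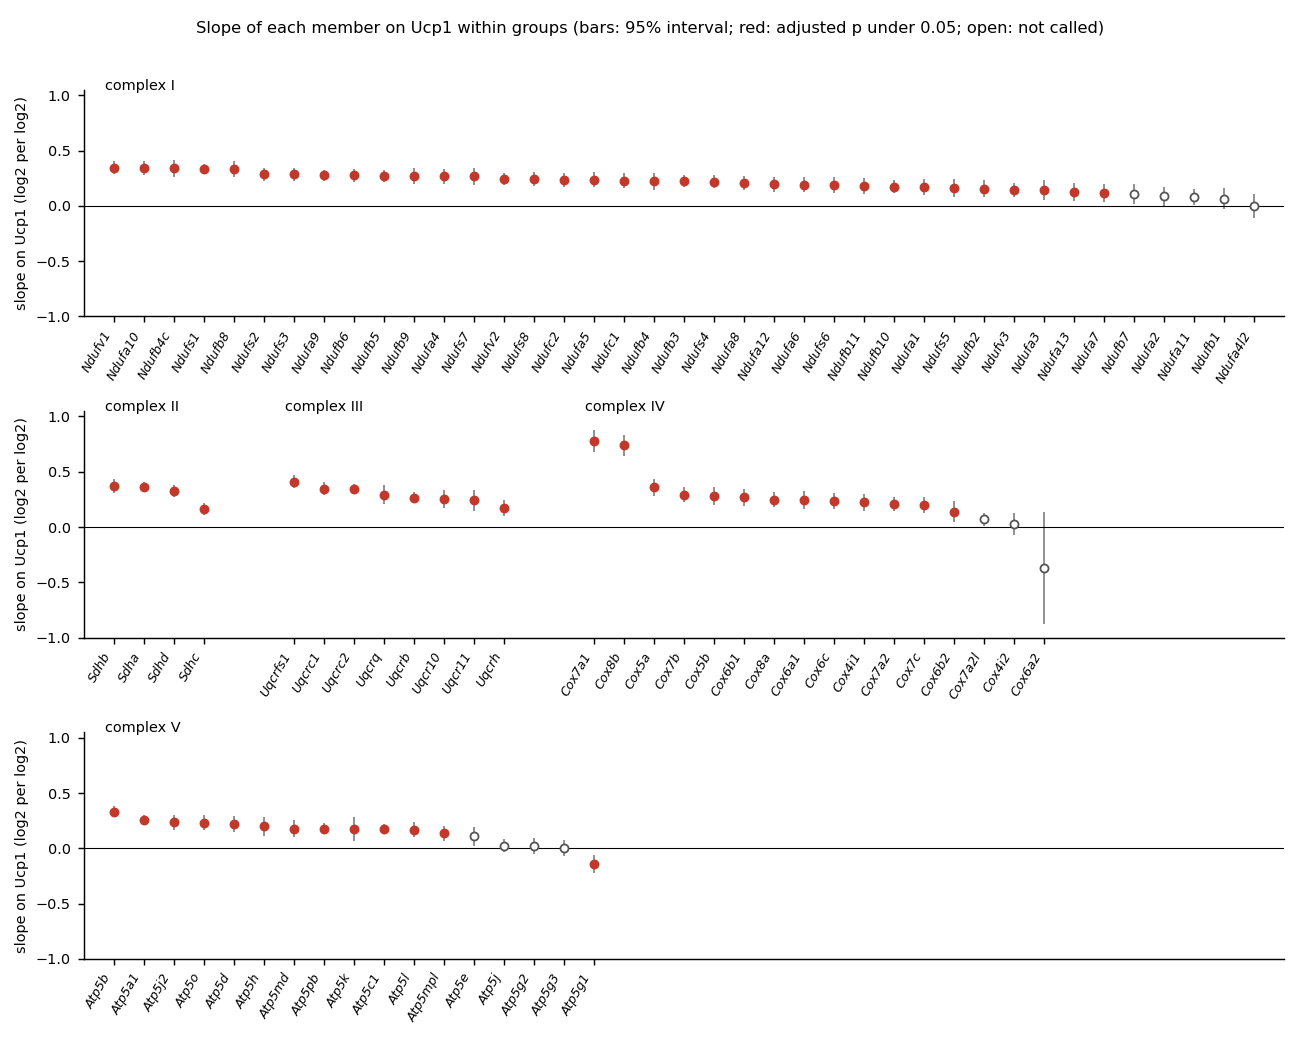
Slope of each member on Ucp1 within groups (y axis, log2 units per doubling of Ucp1) with its 95% interval, for each gene on the x axis, in 3 rows for complex I, complexes II, III and IV, and complex V. Cox7a1 (0.78) and Cox8b (0.74) stand above the other members and Atp5g1 (−0.14) lies below 0.

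Groups were also taken alone, with fewer libraries in each fit. Of 83 members tested there, 40 rose with Ucp1 in MaCon (background 4.62% of genes called), 35 in FeCon (2.23%), 38 in FeNonAD (3.69%), 13 in MaAAD (2.4%) and 9 in FeAAD (1.32%), and none fell. In MaAAD the relation of the mean level to Ucp1 rested on the 2 farthest libraries (r of −0.76 without them), and the 13 calls were not tested without these. In the 20 control libraries 54 rose (6.67%). Without MaAAD1 57 rose and 1 fell (14.5%), and without FeAAD5 73 were called (19.0%). With Cidea, a lipid droplet protein of brown fat, in place of Ucp1, 69 members were called (26.3%), and with Adipoq, a hormone of all fat, 76 were (19.0%). Ucp1 as a covariate left 2 members lower in MaAAD than in MaCon, Ndufv3 (−0.43, edgeR adjusted p = 0.0209) and Cox4i2 (−0.66, edgeR adjusted p = 0.0166), against a background of 32.0%, and 2 in FeAAD against FeCon, Cox6a2 (−2.19) and Cox4i2 (−0.49), against 45.0%. Without MaAAD1 the covariate left 18 lower in MaAAD than in MaCon (background 26.0% called, 11.2% called lower) at a median of −0.35, and none against MaNonAD in edgeR (background 0.0%), with 21 at an unadjusted p below 0.05, against 9.91% of all genes.

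Cox7a1 and Cox8b stand for their complex IV positions in muscle and brown fat, where Cox7a2 and Cox8a serve in other tissues. Cox7a1 was at 12.6 CPM in the lowest MaCon library, 40.2 CPM in the median and 61.8 CPM in the highest, at 28.0, 122, 73.8 and 40.3 CPM in the MaNonAD libraries, and at 1.69, 11.1 and 120 CPM in MaAAD, where MaAAD1 held the maximum and the others at most 16.4 CPM. In females it ran from 11.6 over 25.9 to 62.6 CPM in FeCon, from 10.1 over 25.9 to 51.4 CPM in FeNonAD and from 5.09 over 14.3 to 41.8 CPM in FeAAD. The groups overlapped throughout, and the log2 fold change was −0.60 ± 0.51 for MaAAD against MaCon (edgeR adjusted p = 0.372) and −1.33 ± 0.62 against MaNonAD (0.230), which became −1.88 (0.00134) and −2.64 (0.0105) without MaAAD1. Cox8b ran from 27.5 over 73.5 to 134 CPM in MaCon, was 56.2, 185, 143 and 73.5 CPM in MaNonAD, and ran from 6.17 over 17.2 to 269 CPM in MaAAD. In females Cox8b ran from 28.9 over 42.4 to 122 CPM in FeCon, from 21.5 over 48.9 to 119 CPM in FeNonAD and from 11.0 over 29.3 to 72.0 CPM in FeAAD. It had −0.54 ± 0.50 (edgeR adjusted p = 0.420) for MaAAD against MaCon, and −2.01 (0.000298) without MaAAD1.

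The isoforms were also set against their common partners within each library. The log2 ratio of Cox7a1 to Cox7a2 (CPM + 1) was −1.54 ± 0.47 in MaCon (SD, n = 10) and −2.51 ± 1.16 in MaAAD (n = 7), a difference of −0.97 (exact permutation test, two-sided, p = 0.0228, adjusted p = 0.349). That of Cox8b to Cox8a was −1.81 ± 0.45 and −2.70 ± 1.00, a difference of −0.89 (exact permutation p = 0.0232, adjusted p = 0.349). Of 30 such tests, 5 pairs in 6 comparisons, none passed after Benjamini-Hochberg adjustment, and 2 passed without MaAAD1. From library to library the ratio of Cox7a1 to Cox7a2 had an r of 0.85 with Ucp1 over the 48 libraries and 0.84 after removing group means, and that of Cox8b to Cox8a had 0.89 and 0.88. For Cox4i2 to Cox4i1 r over the 48 libraries was −0.55 and for Ndufa4l2 to Ndufa4 it was −0.57. The ratio of Cox6a2 to Cox6a1 had −0.47, but Cox6a2 was under 1.5 CPM in all but 3 libraries, so that the added 1 sets most of its numerator and nothing is read from this r. In these pairs the common partners had positive slopes on Ucp1 (Cox4i1 0.22, Cox6a1 0.25, Ndufa4 0.27) while the isoforms had none that passed. Numerator and denominator come from the library that also gives Ucp1, so these r values are descriptions.

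**Figure D5:**
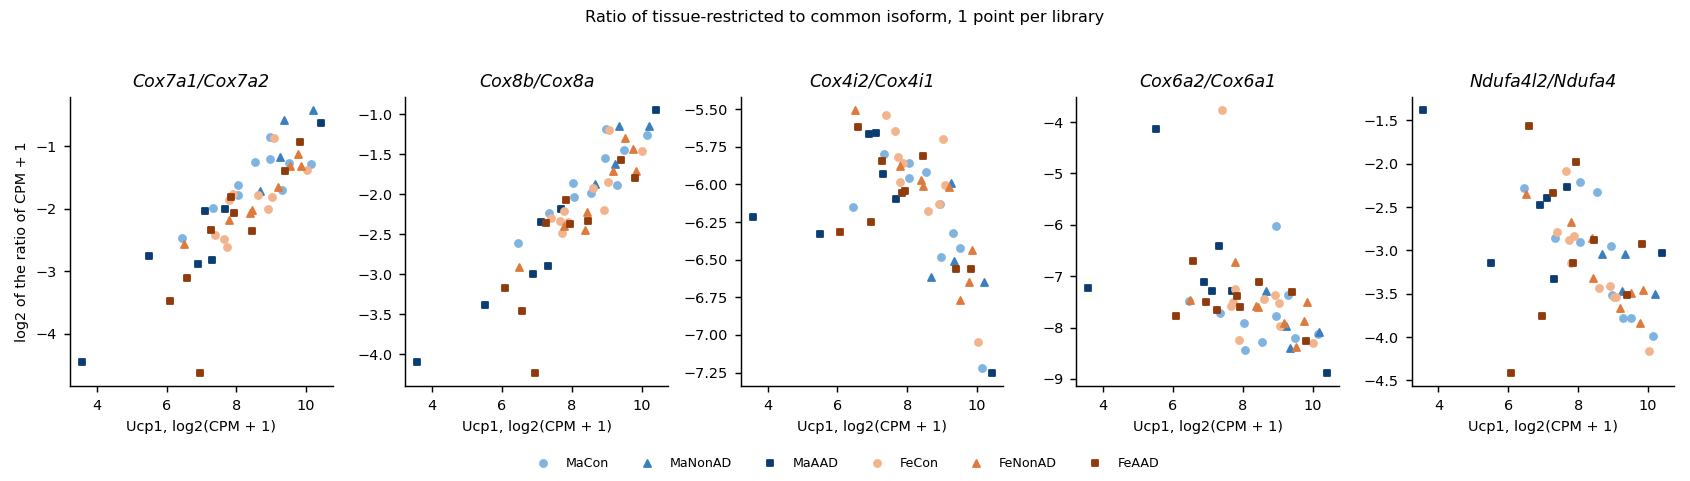
Log2 ratio of each isoform to its partner, both as CPM + 1 (y axes), against log2(CPM + 1) of Ucp1 (x axes), with 1 panel per pair and 1 point per library coloured by group. Cox7a1/Cox7a2 (r = 0.85) and Cox8b/Cox8a (r = 0.89) rise with Ucp1, and Cox6a2 is so low in all but 3 libraries that the added 1 sets most of its ratio.

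For 4 members the sequence just upstream of the start is shown, from RefSeq on GRCm38.p6. The authors aligned to GRCm39, so these coordinates are not those of their files. Cox7a1 (chr7:30183994-30184143, plus strand) and Cox8b (chr7:140900447-140900596, minus strand) had the steepest slopes on Ucp1. Atp5g1 (chr11:96075671-96075820, minus strand) was the one called negative. Cox6a1 (chr5:115348982-115349129, minus strand) is a common subunit with a slope of 0.25, near the members' median of 0.22. All are written 5′ to 3′ toward the gene, no annotated exon is included, and capitals mark matches to the NRF1 motif.
Cox7a1: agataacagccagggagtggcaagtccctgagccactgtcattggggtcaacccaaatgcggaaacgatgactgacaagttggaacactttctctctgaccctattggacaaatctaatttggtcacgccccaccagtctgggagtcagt
Cox8b: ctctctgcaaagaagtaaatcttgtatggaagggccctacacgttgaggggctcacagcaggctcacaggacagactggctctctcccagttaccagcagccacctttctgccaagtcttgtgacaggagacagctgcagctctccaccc
Atp5g1: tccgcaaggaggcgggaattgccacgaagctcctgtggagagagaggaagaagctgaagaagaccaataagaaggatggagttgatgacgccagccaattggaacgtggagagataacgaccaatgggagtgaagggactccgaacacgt
Cox6a1: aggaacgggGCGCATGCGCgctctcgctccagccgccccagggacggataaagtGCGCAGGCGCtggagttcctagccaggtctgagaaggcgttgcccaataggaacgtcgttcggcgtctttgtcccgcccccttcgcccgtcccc
Cox6a1 holds 2 matches to the NRF1 motif, GCGCA, any base and GCGC (nuclear respiratory factor 1 is a known regulator of many respiratory genes), and the other 3 hold none in the stretch shown or in the window searched. The window was the 300 bases around each start, 250 of them upstream, on both strands, for the 70 of 87 members found by symbol among 27025 genes. The NRF1 motif was in 17 members (24.3%) and in 5.19% of all genes, the ETS motif CCGGAAG in 17 (24.3%) and 9.93%, the ERR motif AAGGTCA in 8 (11.4%) and 5.38%, and the YY1 motif AAGATGGC in 10 (14.3%) and 3.19%. By complex the NRF1 motif was in 7 of 34 members of complex I, 2 of 3 of complex II, 1 of 5 of complex III, 1 of 13 of complex IV and 6 of 15 of complex V. The 1 member of complex IV was Cox6a1, so in this motif it does not stand for the common subunits of its complex. Whether the motif goes with the slope on Ucp1 was not tested. A match is a description of letters and not a site. The 70 members had 75 windows, since 5 of them have 2 in the table, and a gene was counted if any of its windows held the motif.

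Other mitochondrial genes were counted on the same slope. All 13 enzymes of the citrate cycle tested rose with Ucp1, with a median slope of 0.35, among them citrate synthase (Cs) at 0.34 ± 0.02 and Suclg2, a subunit of succinyl-CoA synthetase, at 0.09 ± 0.02. Of 18 genes of fatty acid oxidation 17 rose, with a median of 0.48, among them Cpt1b, the muscle and brown fat form of the enzyme that admits fatty acids, at 0.85 ± 0.04, and Acadm, the medium-chain dehydrogenase, at 0.51 ± 0.02, and 1 fell, Cpt1a, the common form, at −0.09 ± 0.03 (edgeR adjusted p = 0.0475). Of 47 assembly factors, which build the complexes but are not part of them, 28 rose with a median of 0.10, the steepest being Lyrm7 of complex III at 0.30 ± 0.04. Of 12 carriers, pore proteins and partners of the complexes 4 rose with a median of 0.05, Cyc1 and Ndufab1 among them, as well as cytochrome c (Cycs) at 0.38 ± 0.04, while the ADP/ATP exchanger Slc25a4 was at 0.00 ± 0.03 and the outer-membrane pore Vdac1 at 0.03 ± 0.02. Among 14 genes that control mitochondrial mass 5 rose and 1 fell, with the coactivators Ppargc1a at 0.57 ± 0.06 and Ppargc1b at 0.70 ± 0.06, the receptor Esrra at 0.25 ± 0.03, and Nrf1 (−0.04 ± 0.02) and Tfam (0.04 ± 0.02) without a call. Of the 10 brown fat genes other than Ucp1 itself 8 rose, Dio2 (0.03 ± 0.05) and Prdm16 (−0.06 ± 0.06) not passing, and of 10 genes of fat of any kind 9 rose with a median of 0.51. The brown fat list shares Ppargc1a and Cpt1b with the lists above. Of 6 endothelial genes 2 rose, and 2 of 6 fibroblast genes and 2 of 10 leukocyte genes fell. No gene of the smooth muscle, heart muscle or skeletal muscle lists was called on this slope in edgeR. Over the 48 libraries the members' level had an r of 0.94 with the carriers and pores and 0.91 with the assembly factors. It had 0.83 with the citrate cycle, 0.81 with fatty acid oxidation and 0.56 with the genes that control mitochondrial mass, beside 0.74 with Ucp1.

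The same lists were counted in the lesion comparisons, where 35.0% of all genes were called in males (16.1% lower) and 44.4% in females (20.6% lower). Between MaAAD and MaCon 2 of 13 citrate cycle enzymes fell, none of the 18 fatty acid oxidation genes and none of the brown fat genes passed, and 1 of 47 assembly factors rose and 4 fell, shares below the background. Between FeAAD and FeCon 1 citrate cycle enzyme and 1 fatty acid oxidation gene fell, Prdm16 fell by 0.59 on the log2 scale (edgeR adjusted p = 0.022), and of the assembly factors 8 rose and 1 fell, again no more than the background. Of the 14 genes that control mitochondrial mass 1 fell in males, and 1 rose and 4 fell in females. Of the 12 carriers and pores 1 fell in males, and 2 rose and 1 fell in females. In these comparisons all 10 smooth muscle genes fell, at a median of −1.16 in males and −1.06 in females, and 9 of 10 leukocyte genes rose in each sex. Of 6 fibroblast genes 4 rose in males, and 3 rose and 1 fell in females. Of 10 genes of fat of any kind 1 fell in males and 2 in females, of 7 skeletal muscle genes 1 and 2 fell, and of 6 endothelial genes 2 rose in males and 1 rose and 1 fell in females. Of 11 heart muscle genes 1 fell in males and 6 fell in females, with FeCon10, the control library highest in these genes, in the fit. The genes outside the set whose level was most like that of the members over the 48 libraries were S100a1 (r = 0.971), Cisd3 (r = 0.971) and Cisd1 (r = 0.968), the last 2 of which encode iron-sulfur proteins of mitochondria. Cyc1 came 12th (r = 0.948) and Ucp1 366th (r = 0.744) of 13626 genes.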

How the data were processed

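The thoracic aortas of 48 mice were measured by RNA sequencing. Expected counts per gene, not scaled to library size, were deposited by the authors, and the submitters' processing notes name Bowtie2, RSEM 1.3.1 and GRCm39. Of all values 4.99% were not whole, which RSEM gives where reads are shared between genes, and counts were rounded. A test of plain counts had been planned, and the same test was used on the rounded counts. Reads of Ndufb4, Ndufb4b and Ndufb4c cannot be told apart with certainty. Subunits encoded in mitochondrial DNA were not analysed here.

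Groups were taken from the labels. Genes were filtered with filterByExpr, libraries scaled by TMM (factors 0.874 to 1.08), and 14431 genes fitted over all 6 groups by edgeR 4.0.16 (quasi-likelihood, robust) in R 4.3.3, with Benjamini-Hochberg adjustment over all genes tested and a threshold of 0.05. CPM used these scaled totals, and levels are log2(CPM + 1), so low genes vary less on this scale. The slope on Ucp1 added log2(CPM + 1) of Ucp1 to the 6 groups. Ratios were tested by exact permutation in Python 3.11.15 with scipy 1.17.1 and numpy 2.4.6. The fits were tested on simulated data. With 200 genes changed between FeAAD and FeCon, 37% of those changed by 0.5 (log2) were called and 82% of those changed by 1. The simulation also called 5 unchanged genes. At this group size a change of 0.5 was thus missed more often than called, and a member without a call may still differ. Alternatives were other scalings, no filter, DESeq2 1.42.0, only the groups compared, a replicate block, libraries left out, and Ucp1 or heart muscle genes as covariates. The named genes were the isoform pairs, the core subunits, up to 3 rises and 3 falls per comparison and slope among called members averaging at least 10 counts, Cyc1, Ndufab1 and Ucp1, and the 3 genes most like the members' level. Other members were named, after their values were seen, to complete a count. The members and lists were chosen with earlier results of these data known. Promoters and transcript lengths are of GRCm38.

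p-values weigh a difference against the spread between mice of a group, and depth limits the lowest genes. By the paper, mice of a group were divided over a few cages and the sexes were housed apart. The labels do not give the cage, so it is in no fit, and cage cannot be told apart from group or sex.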

Additional observations from a re-analysis of the deposited data

Results flagged for a closer look

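Of 72 checks for a library far from the rest of its group, 11 found one, where chance gives about 1 in 20. In 6 of them it was MaAAD1, whose mean log2(CPM + 1) was 7.46 for all members with the nearest MaAAD library at 6.20, 7.10 for complex I (nearest 5.83), 8.50 for complex II (nearest 7.02), 8.20 for complex III (nearest 6.61), 7.19 for complex IV (nearest 5.83) and 7.94 for complex V (nearest 7.06). These 6 values come from 1 mouse and overlapping genes and are not separate findings.

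The other 5 were log2 ratios of isoforms (CPM + 1). For Cox4i2 to Cox4i1 they were MaCon2 at -7.22 (nearest -6.48), MaAAD1 at -7.25 (nearest -6.33) and FeCon8 at -7.04 (nearest -6.18), each the lowest of its group. For Cox6a2 to Cox6a1 they were MaCon6 at -6.02 (nearest -7.36) and FeCon10 at -3.77 (nearest -7.25), each the highest of its group and 2 of the 3 libraries high in heart muscle genes.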

How the results depend on the processing

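Counts of members called moved with these settings. For MaAAD against MaCon the 6 became 2 with only those groups fitted, 2 with Ucp1 as a covariate, 75 without MaAAD1, 18 without MaAAD1 and with Ucp1, and 2 without the 3 libraries high in heart muscle genes, while the share of all genes called went from 35.0% to 34.4%, 32.0%, 37.1%, 26.0% and 27.6%. For MaAAD against MaNonAD 0 became 68 without MaAAD1 (all genes 0.409% and 9.31%). For FeNonAD against FeCon 1 became 0 with no filter and with library totals alone (all genes 14.5%, then 10.4% and 13.9%). For FeAAD against FeCon 3 became 1 with library totals, 1 with only those groups, and 0 with heart muscle genes as a covariate, where Cox6a2 reversed to 0.27 (all genes 44.4%, then 42.6%, 35.5% and 43.0%). For MaCon against FeCon 0 became 1 with library totals, 1 with only those groups, 4 with Ucp1, 2 without MaAAD1 and 7 with both (all genes 14.3%, then 12.9%, 14.1%, 16.2%, 16.0% and 17.6%). The slope's 72 became 40 in MaCon alone, 35 in FeCon, 38 in FeNonAD, 13 in MaAAD and 9 in FeAAD, where fewer libraries were fitted (all genes 18.0%, then 4.62%, 2.23%, 3.69%, 2.40% and 1.32%). It also moved without MaAAD1, in the 20 control libraries, and with Cidea or Adipoq, by the counts given in the Results (all genes 14.5%, 6.67%, 26.3% and 19.0%). The isoform ratios' 0 became 2 without MaAAD1. The cause of these moves was not tested.

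Leaving out 1 replicate (each MaNonAD mouse, FeCon10 or FeNonAD8) gave 5 to 6 members for MaAAD against MaCon (33.8% to 34.8% of all genes), 2 to 3 for FeAAD against FeCon (42.8% to 44.3%), 0 to 1 for FeNonAD against FeCon (12.0% to 14.4%; 0 members without MaNonAD2, MaNonAD3 or FeNonAD8), 72 to 72 for the slope (15.9% to 18.0%) and 0 for the other comparisons. With the replicate number as a block, the counts were 6 for MaAAD against MaCon (32.8% of all genes), 72 for the slope (12.3%) and 0 for FeAAD against FeCon (42.3%), FeNonAD against FeCon (10.2%) and the others. The correlation of same-numbered mice ran from -0.532 to 0.472, so the numbers do not pair mice. Of the values for single genes, 234 kept their direction and side of the threshold, 50 lost the call and 1 reversed. The settings without MaAAD1, without FeAAD5, without the 3 heart-high libraries, with single groups and with Cidea or Adipoq were chosen after seeing the data. Transcripts at a few counts, such as Cox6a2, are limited by depth, and 4 MaNonAD mice by number.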
